A study of Mus musculus with 12 samples.

Results

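The floxed control lines ARNT Flox and AHR Flox were compared across the liver transcriptome. These are 6 of the 12 libraries of the study, 3 per line and 1 per mouse, and they were chosen by genotype alone. Each line carries recombination sites in a different gene, Arnt in ARNT Flox and Ahr in AHR Flox, and neither carries a deletion. By label all mice were female, on a C57BL/6 background, 6 months old and fed a high-fat diet for 13 weeks. The other 6 libraries, AHR KO and ARNT KO, come from mice of the matching lines that lost the gene, and they enter here only as a separate pair of the same lines. Not given in the sources used here are the recombinase, the place of the recombination sites, and the founders or litters behind each line.

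A floxed gene is flanked by short recombination sites and is normally transcribed until a recombinase removes the stretch between them, so floxed mice without the recombinase serve as controls. AHR, the aryl hydrocarbon receptor, is a ligand-activated transcription factor that induces Cyp1a1, Cyp1a2 and other detoxification genes in the liver. ARNT is the partner with which AHR binds DNA, and the hypoxia-inducible factors use it in the same way. The comparison asks how far 2 control lines of 1 study differ from each other when both target genes are intact.

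Total counts ran from 23585909 to 32052905 over the 6 libraries, with 15849 to 16406 genes detected in each. Levels are CPM, read counts normalised to a library size shared by all 12 libraries. A count of 0 in a library allows a level of up to 0.0893 to 0.126 CPM (3 counts), a limit that covers counting error only. The median absolute log2 difference between 2 libraries was 0.114 to 0.165 within a line and 0.199 to 0.266 between lines, and the first principal component, with 55.4% of the variance, separated the lines. Markers of hepatocytes, the main liver cell, summed to 178000 to 187000 CPM in AHR Flox and 153000 to 180000 CPM in ARNT Flox. The Y-linked genes Kdm5d, Eif2s3y, Uty and Ddx3y had 0 reads in every library. ARNT KO replicate 3 stood apart from its group in many genes named below, so the counts that use it are also given without it.

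In ARNT Flox against AHR Flox, 957 genes were higher and 658 were lower among 13584 tested, by edgeR's quasi-likelihood test at a Benjamini-Hochberg adjusted p under 0.05. That is 11.9% of the genes tested, 7.05% higher and 4.84% lower, and it is the background for every count below. For all 1615 genes called, the 3 libraries of 1 line lay outside the range of the other 3. Such separation was common over all genes tested, the called ones included: 18.1% had all 3 ARNT Flox libraries above, and 18.1% had them below, all 3 AHR Flox libraries. Most differences were small, with a median of 1.65-fold among genes called higher and 1.33-fold among those called lower. At least 2-fold changes were 283 higher (2.08% of the genes tested) and 84 lower (0.618%), and at least 4-fold changes were 54 higher and 22 lower.

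The number called rested on each library. It was 653, 631 and 924 without ARNT Flox replicate 1, 2 and 3, and 1151, 850 and 1467 without AHR Flox replicate 1, 2 and 3. When all 12 libraries shared 1 estimate of the spread, 46 genes were called, and all 46 were among the 1615. With ARNT KO replicate 3 left out of that fit, 1532 were called, 1294 of them among the 1615. Since the labels do not say that the mice of a line came from separate litters, the p-values measure only the spread between these samples.

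**Figure D1:**
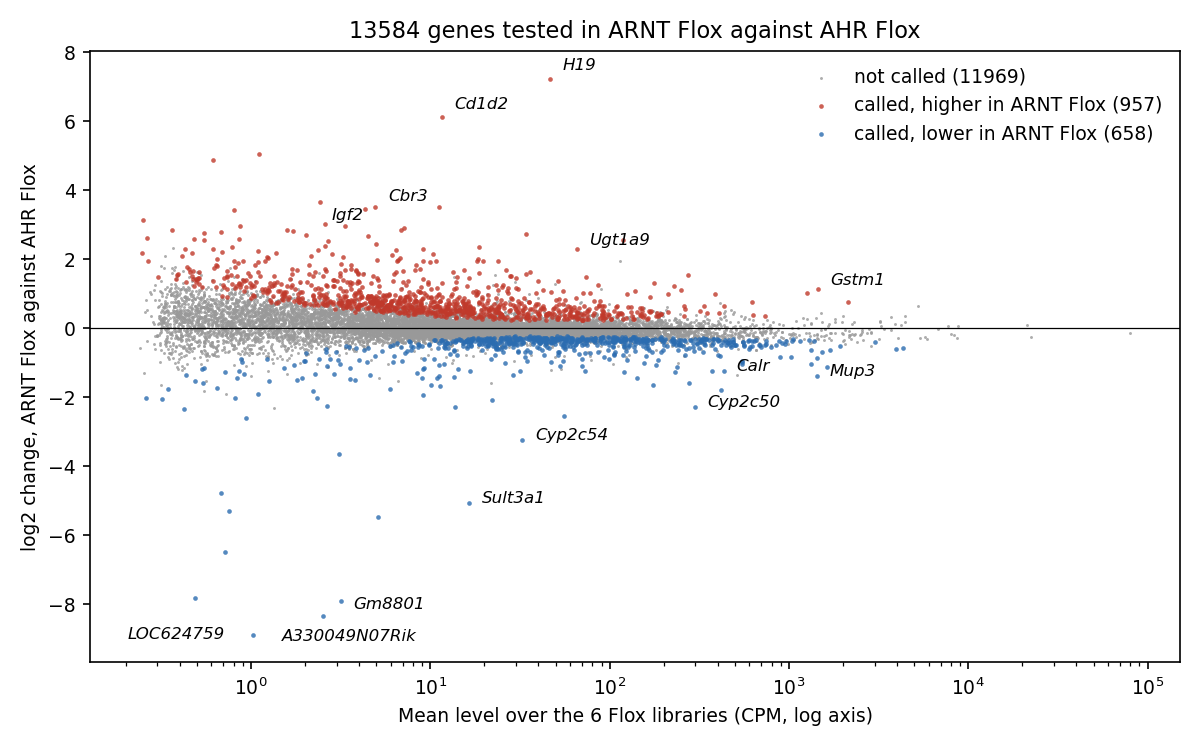
Each point is 1 of the 13584 genes tested, placed by its mean level over the 6 Flox libraries (CPM, log axis) and its log2 change in ARNT Flox against AHR Flox. Red points are the 957 genes called higher and blue points the 658 called lower; H19 and Cd1d2 lie highest, and several genes with almost no reads in ARNT Flox lie below -5.

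Both targeted genes were expressed in both lines. Arnt was at 51.3, 64 and 54.3 CPM in AHR Flox replicates 1 to 3 and at 47.8, 52.5 and 50.3 CPM in ARNT Flox replicates 1 to 3. The log2 change was -0.17 (SE 0.09, adjusted p = 0.246), and 1 AHR Flox library lay within the ARNT Flox range. Ahr was at 53.9, 78.8 and 72.4 CPM in AHR Flox and 71.6, 80.1 and 96.4 CPM in ARNT Flox, with overlapping groups and a log2 change of 0.28 (SE 0.15, adjusted p = 0.259). Neither gene passed the test, so the line in which a gene carried recombination sites showed no called change in that gene. Of 7 tested genes of the bHLH-PAS family, to which Ahr and Arnt belong, only Epas1, which encodes a hypoxia-inducible factor, was called: 255, 267 and 269.8 CPM in AHR Flox and 362, 382 and 382 CPM in ARNT Flox, with no overlap (log2 change 0.51, SE 0.07, adjusted p = 0.00416).

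The neighbourhoods of the 2 floxed genes held some of the sharpest line differences. Cd1d2, a lipid-antigen-presenting CD1 gene that RefSeq lists as a transcribed pseudogene, lies 8.44 Mb from Arnt (chr3:86986586-86989533). It had 0.306, 0.41 and 0.248 CPM in AHR Flox and 22.4, 23.1 and 23.1 CPM in ARNT Flox, a 69.4-fold rise (log2 change 6.12, SE 0.15, adjusted p = 5.33e-07). The 3 ARNT Flox libraries were nearly equal and far above the near-absent AHR Flox level. Its neighbour Cd1d1, the functional CD1 gene of mice, was at 317, 365 and 367 CPM in AHR Flox and 289, 274 and 276 CPM in ARNT Flox, a log2 change of -0.32 (SE 0.08, adjusted p = 0.0399). The groups did not overlap, but the Cd1d1 call was lost without 5 of the 6 libraries, at adjusted p of 0.0815 to 0.137. Rps3a (now Rps3a1), a ribosomal protein gene 9.29 Mb from Arnt, was at 231, 209 and 181 CPM in AHR Flox and 74, 77.3 and 79.1 CPM in ARNT Flox, 2.69-fold lower (adjusted p = 0.000176). Reads of near-identical ribosomal protein pseudogenes can be split in counting, so that value is uncertain. Ctss, the protease cathepsin S of antigen-presenting cells, starts 0.0295 Mb past Arnt and was 1.49-fold higher (adjusted p = 0.00383).

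Genes near Ahr on chromosome 12 also differed between the lines. Sntg2, which encodes a syntrophin (chr12:30174482-30373392), was at 21.4, 18.7 and 18.9 CPM in AHR Flox and 7.14, 6.92 and 7.88 CPM in ARNT Flox. It was 2.69-fold lower (adjusted p = 0.000199), and all 3 ARNT Flox libraries lay well below the others. Tmem18 was 1.72-fold lower (adjusted p = 0.000673). In the opposite direction, Acp1, a low molecular weight phosphatase gene 4.59 Mb from Ahr, was at 26.7, 27.9 and 26.1 CPM in AHR Flox and 54.8, 59.5 and 61.1 CPM in ARNT Flox, 2.18-fold higher (adjusted p = 0.000125). These neighbours therefore moved in both directions.

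Counted as a whole, the neighbourhoods held a larger share of called genes than the genome, but so did some chromosomes without a floxed gene. Within 10 Mb of Arnt, 37 of 251 tested genes were called (14.7%), and within 20 Mb 49 of 337 (14.5%). Around Ahr the counts were 11 of 50 within 10 Mb (22%) and 15 of 96 within 20 Mb (15.6%), against 11.9% of all genes. Called changes of at least 2-fold made up 5.04% of the genes within 20 Mb of Arnt and 4.17% within 20 Mb of Ahr, against 2.7% of all genes. The whole of chromosome 3, which holds Arnt, had 14.5% called and 4.34% at 2-fold or more, and chromosome 12, which holds Ahr, 12.2% and 2.57%. Without a floxed gene, chromosomes 17, 15 and 19 had 16.5%, 15.9% and 15% called, and 5.01%, 3.37% and 4.88% at 2-fold or more. These shares were not tested.

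**Figure D2:**
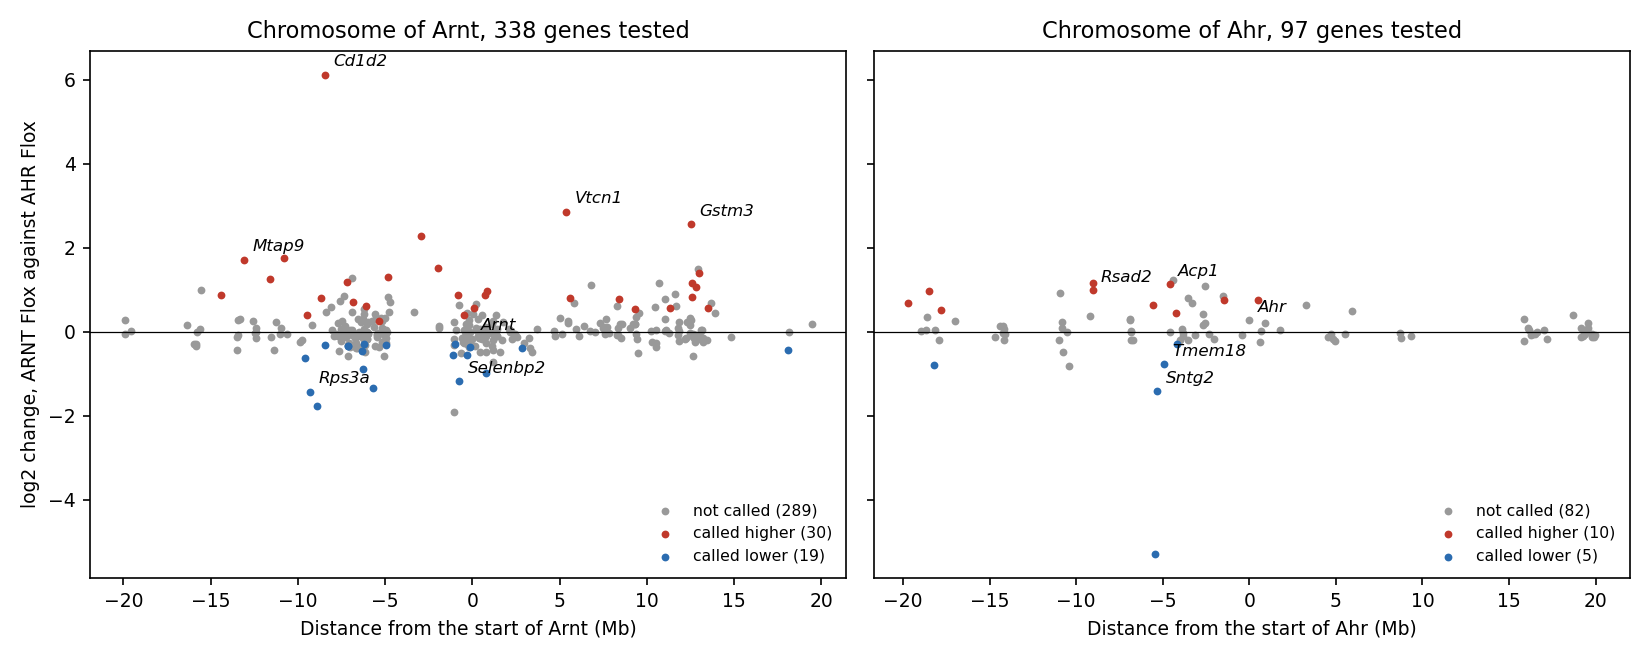
Log2 change in ARNT Flox against AHR Flox of each tested gene within 20 Mb of Arnt (left) or Ahr (right), by its distance from the start of that gene in Mb; the target gene itself is shown. Red and blue points are called higher and lower; Cd1d2 stands above the other neighbours of Arnt, and near Ahr, Acp1 lies among the red and Sntg2 among the blue points.

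The major histocompatibility complex, which encodes the molecules that present antigens to T cells, differed between the lines gene by gene. Between the outermost tested H2 genes (GRCm38.p6, chr17:33938909-37483554), 37 of 119 tested genes were called (31.1%), 24 higher and 13 lower, and 15 changed at least 2-fold (12.6%). On the rest of chromosome 17, 75 of 559 were called (13.4%). Gm8801, a transcribed pseudogene in this span (chr17:35947154-35953317), had 9.23, 7.01 and 2.73 CPM in AHR Flox and 0.0595, 0 and 0 CPM in ARNT Flox (log2 change -7.90, SE 0.81, adjusted p = 0.00122). H2-Ea-ps, the pseudogene of a class II alpha chain, had 1.64, 0.752 and 0.538 CPM in AHR Flox and 0 reads in each ARNT Flox library, at least 29.1-fold lower (adjusted p = 0.0115). Transcripts of both were thus present in each AHR Flox mouse and at or near 0 in each ARNT Flox mouse. Gm8909 fell from 13.5, 7.93 and 8.57 CPM in AHR Flox to 0.238, 0.282 and 0.126 CPM in ARNT Flox (log2 change -5.46, SE 0.33, adjusted p = 0.000118). The long noncoding gene 2410017I17Rik spans the same stretch, and without a known strand setting their reads cannot be told apart. H2-T10, a nonclassical class I gene, was 4.2-fold lower (adjusted p = 0.00117).

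Most expressed antigen presentation genes were instead higher in ARNT Flox. Of 25 tested members of the MHC and antigen presentation list, 15 were higher and 2 lower, H2-T10 and H2-D1. The list's median log2 change was 0.61, against -0.000906 over all genes tested. H2-Eb1, a class II beta chain, was at 1.26, 12.5 and 13 CPM in AHR Flox and 60.6, 65.5 and 51.5 CPM in ARNT Flox (log2 change 2.75, SE 0.56, adjusted p = 0.0189). AHR Flox replicate 1 lay far below the rest of its group, and the call was lost without ARNT Flox replicate 1 (adjusted p = 0.056) or 2 (0.0586). H2-T23, a class I gene read by natural killer cells, had the same low AHR Flox replicate: 57.8, 199 and 164 CPM in AHR Flox and 404, 405 and 420.2 CPM in ARNT Flox (adjusted p = 0.0298, and 0.0578 to 0.081 without any of 4 libraries). More even were Tap1, the peptide transporter, at 34.2, 41.2 and 31 CPM in AHR Flox and 76.9, 81.5 and 65.7 CPM in ARNT Flox (adjusted p = 0.00189), and the class II invariant chain Cd74, which was 1.98-fold higher (adjusted p = 0.00234). The class II beta chain H2-Ab1 rose 2.08-fold (adjusted p = 0.00325), the class I gene H2-Q6 2.04-fold (adjusted p = 0.00963) and Psmb9, a subunit of the immunoproteasome, 1.64-fold (adjusted p = 0.00313). Without ARNT Flox replicate 1 or 2 the members called higher were 8 and 9, and H2-D1 was not called (adjusted p = 0.0712 to 0.0753). Class I genes are near-identical copies, and a read that fits several of them can be split in counting, so their levels are uncertain.

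Genes of the interferon response, by which cells hold back viruses, were higher in ARNT Flox nearly throughout the list. Of 38 tested members 32 were higher and none lower, all 38 had a log2 change above 0, and the median was 0.99. Leaving out any 1 of the 6 libraries gave 28 to 32 members called higher, 28 to 31 of which were among those 32. In the fit of 12 libraries 1 member was called, and 32 were when ARNT KO replicate 3 was left out of it.

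Irf7, the factor that amplifies interferon production, was at 41.1, 41.7 and 34 CPM in AHR Flox and 108, 114 and 106 CPM in ARNT Flox (log2 change 1.49, SE 0.09, adjusted p = 0.000118). Oas1a, which makes the messenger that activates RNase L, was at 4.19, 4.34 and 3.6 CPM in AHR Flox and 13, 14.2 and 12.8 CPM in ARNT Flox (log2 change 1.72, SE 0.11, adjusted p = 0.000163). In both genes the 3 libraries of each line were close together and the lines far apart. Ifi44 rose 4.05-fold (adjusted p = 0.000452), Oasl2 3.2-fold (adjusted p = 4.76e-05), Ifit2 3.07-fold (adjusted p = 0.000118) and Zbp1, a sensor of nucleic acids, 3.21-fold (adjusted p = 0.00117). Rsad2, which encodes the antiviral enzyme viperin, was at 10.9, 13.2 and 12.4 CPM in AHR Flox and 24.4, 22.3 and 25.4 CPM in ARNT Flox (adjusted p = 0.000977). It lies with Cmpk2 about 9 Mb from Ahr, and Cmpk2 rose 2.22-fold (adjusted p = 0.00248). Outside the list, Ubd, an interferon-inducible ubiquitin-like modifier, was at 0.409, 0.41 and 0.911 CPM in AHR Flox and 3.87, 5.82 and 3.98 CPM in ARNT Flox (adjusted p = 0.00138), and Ly6e rose 1.99-fold (adjusted p = 0.000673).

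The core of the interferon-stimulated response element, GAAA, any 2 bases and GAAA again on either strand, was searched in RefSeq promoters (250 bases before to 50 after the start) of GRCm38.p6, which matched 10770 of the 13584 genes. It was found for 17 of the 27 list genes with a promoter, for 70 of 725 genes called higher (9.66%), for 19 of 523 called lower (3.63%) and for 3.79% of all. A match is a description of letters, not a site shown to be used, and this motif was chosen after the data were seen. The 200 bases before the start of 2 members are shown 5′ to 3′ on the gene's strand, with the match in capitals, because both hold the core and both genes rose. Oas1a (chr5:120907526-120907725, minus strand) has a pair of overlapping matches that end near the start, and Rsad2 (chr12:26456453-26456652, minus strand) has one in the reverse orientation that spans bases 120 to 111 before it.
Oas1a: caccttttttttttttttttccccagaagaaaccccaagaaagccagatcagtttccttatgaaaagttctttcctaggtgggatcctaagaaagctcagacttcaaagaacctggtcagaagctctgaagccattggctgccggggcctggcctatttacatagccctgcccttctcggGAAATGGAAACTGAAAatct
Rsad2: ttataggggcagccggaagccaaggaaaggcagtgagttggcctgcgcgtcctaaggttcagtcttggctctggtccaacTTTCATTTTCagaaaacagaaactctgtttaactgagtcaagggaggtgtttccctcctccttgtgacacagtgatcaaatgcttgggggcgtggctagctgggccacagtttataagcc

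Enzymes that handle electrophiles and glutathione, many of them targets of the oxidative stress factor NRF2, formed another group that was higher in ARNT Flox. Of 41 tested members 16 were higher and 1, Taldo1, was lower, with a median log2 change of 0.36, and the summed level was 13200 to 15600 CPM in AHR Flox and 16200 to 17800 CPM in ARNT Flox. Cbr3, a carbonyl reductase, was at 0.988, 0.444 and 0.953 CPM in AHR Flox and 8.46, 10.5 and 8.25 CPM in ARNT Flox (log2 change 3.52, SE 0.25, adjusted p = 0.000227). Abcc4, an efflux pump for bile acids and conjugates, was at 4.97, 8.34 and 4.76 CPM in AHR Flox and 27.9, 35.6 and 30.5 CPM in ARNT Flox (log2 change 2.37, SE 0.20, adjusted p = 0.000577). For both, the lowest ARNT Flox library was more than 3 times the highest AHR Flox library. Gstm1, a glutathione transferase, gained most in CPM: 762, 1016 and 936 CPM in AHR Flox and 1962, 2265 and 1770.0 CPM in ARNT Flox (adjusted p = 0.00234). Its neighbour Gstm3 rose 5.86-fold (adjusted p = 0.00128), Gstp1 2.32-fold (adjusted p = 0.000968), Srxn1, which repairs peroxiredoxins, 2.04-fold (adjusted p = 0.000723) and the quinone reductase Nqo1 1.84-fold (adjusted p = 0.00368). The Gstm and Gstp genes have close copies among which reads can be split. Without ARNT Flox replicate 2 the members called higher were 10, and the Taldo1 call was lost without 5 of the 6 libraries, at adjusted p of 0.0511 to 0.122. In the fit of 12 libraries none was called, and 16 were without ARNT KO replicate 3.

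The antioxidant response element core TGACNNNGC, on either strand, stood in promoters of 15 of 36 list genes, against 16.9% of all genes. Within the list it was no more common among members called higher (5 of 15) than among those not called (10 of 20). Abcc4, one of the 5, is shown because it rose most among them; the core, in reverse orientation, is in capitals in the 200 bases before the start (chr14:118706220-118706419, minus strand).
Abcc4: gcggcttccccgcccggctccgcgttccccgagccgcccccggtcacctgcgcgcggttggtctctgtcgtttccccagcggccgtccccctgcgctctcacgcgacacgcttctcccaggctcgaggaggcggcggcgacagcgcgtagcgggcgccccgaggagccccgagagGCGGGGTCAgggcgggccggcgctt

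Several genes known to respond to AHR were higher in the ARNT Flox line. Of 18 tested members 8 were higher and none lower, with a median log2 change of 0.63. Cyp1a2, the classic hepatic AHR target, was at 432, 530.1 and 424 CPM in AHR Flox and 779.6, 836 and 743 CPM in ARNT Flox (log2 change 0.77, SE 0.11, adjusted p = 0.00434). Ugt1a9, a drug-conjugating glucuronosyltransferase, was at 24, 17 and 25.4 CPM in AHR Flox and 98.5, 119 and 109 CPM in ARNT Flox (log2 change 2.30, SE 0.15, adjusted p = 0.000149). No library of one line reached the other in either gene, but the Ugt1a transcripts share exons, so that count is uncertain. Cyp1a1 stayed close to the detection limit, at 0.477, 0.308 and 0.456 CPM in AHR Flox and 1.16, 1.06 and 0.712 CPM in ARNT Flox. Its adjusted p of 0.0337 rose to between 0.0599 and 0.112 without any of 5 libraries. The calls of Cyp1b1, Cyp2a5 and Gsta1 were also lost without 2 or more of the libraries. Tiparp, a direct AHR target, did not pass the test (log2 change -0.31, adjusted p = 0.122). Without ARNT Flox replicate 1, 2 or 3 the list held 3, 4 and 5 called members, and 5, 6 and 5 without AHR Flox replicate 1, 2 or 3. The fit of 12 libraries called none and that without ARNT KO replicate 3 called 7. The AHR-ARNT core GCGTG stood in promoters of 6 of 14 list genes, below the 54% of all genes.

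Other xenobiotic and steroid enzymes went both ways, with some of the strongest falls of the comparison. Of 45 tested targets of the drug sensors CAR and PXR, 9 were higher and 8 lower, with a median log2 change of 0.08, and without ARNT Flox replicate 1 the higher count was 5. Cyp2c50, an arachidonate-metabolising P450, fell from 415, 534 and 532 CPM in AHR Flox to 99.2, 96.3 and 110.5 CPM in ARNT Flox (log2 change -2.27, SE 0.12, adjusted p = 4.76e-05). Its neighbour Cyp2c54 went from 50.5, 63.7 and 62.2 CPM to 7.62, 2.82 and 8.55 CPM (log2 change -3.23, SE 0.32, adjusted p = 0.000982). Both were low in all 3 ARNT Flox mice, and Cyp2c37 of the same cluster was 2.04-fold lower (adjusted p = 0.00903). These P450 genes are near-identical copies, so reads may be split among them. Cyp2b13, a female-biased P450, fell 3.43-fold (adjusted p = 0.000968). Against these, Cyp2a4, a testosterone hydroxylase, was at 753, 1003 and 738 CPM in AHR Flox and 1760.0, 1894 and 1447 CPM in ARNT Flox (adjusted p = 0.00524). Ugt2b35 rose 2.18-fold (adjusted p = 0.000506), Cyp2g1 3.84-fold (adjusted p = 0.00234) and Akr1b7, an aldose reductase family member, 7.82-fold (adjusted p = 0.00269).

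Sulfotransferases, which attach sulfate to steroids and drugs, showed the same split. Sult3a1 went from 28.7, 21.5 and 45.5 CPM in AHR Flox to 1.46, 0.25 and 1.13 CPM in ARNT Flox (log2 change -5.07, SE 0.45, adjusted p = 0.000673). Its neighbour Gm4794 (now Sult3a2) was at 1.12, 0.581 and 2.57 CPM and 0, 0 and 0.0419 CPM (adjusted p = 0.00773), and Sult2a7 fell 12.6-fold (adjusted p = 0.00109). Estrogen sulfotransferase, Sult1e1, was higher instead, at 2.35, 1.3 and 1.32 CPM in AHR Flox and 5.57, 11 and 19.8 CPM in ARNT Flox (adjusted p = 0.0089), with a wide spread among the ARNT Flox mice. Of 39 tested glucuronosyltransferase, sulfotransferase and carboxylesterase genes 5 were higher and 9 lower (median log2 change -0.07), and the lower count was 3 to 5 without any 1 library.

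Sex-biased liver genes did not follow their bias. Of 33 tested female-biased genes 5 were higher and 7 lower, and of 25 male-biased genes 2 were higher and 3 lower. Leaving out 1 library gave 3 to 6 and 4 to 7 for the first list, and 1 to 2 and 3 to 4 for the second. Mup3, a male-biased urinary protein gene, was at 1843, 2095 and 2311 CPM in AHR Flox and 798, 736 and 863 CPM in ARNT Flox (log2 change -1.38, SE 0.11, adjusted p = 0.000489). Gm2083 (now Mup13) fell 5.79-fold (adjusted p = 0.00287), with AHR Flox replicate 3 highest, and the male-biased P450 gene Cyp2d9 fell 4.83-fold (adjusted p = 0.00248). Mup genes are near-identical copies and are uncertain for that reason. The female-biased Prom1, also a bile duct marker, rose from 1.67, 2.87 and 2.03 CPM to 11, 10.3 and 10.6 CPM (adjusted p = 0.000439). Car3, a carbonic anhydrase of liver and fat, fell from 1737, 2367 and 2618 CPM to 987, 1076 and 1002 CPM (adjusted p = 0.00336), and the protease inhibitor gene Mug1 fell 2.04-fold (adjusted p = 0.00436).

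Chaperones of the endoplasmic reticulum, where secreted proteins fold, were lower in ARNT Flox. Of 27 tested members of the chaperone and unfolded protein response list 17 were lower and none higher, 26 had a log2 change below 0, and the median was -0.35. Summed, the list reached 5080 to 5670 CPM in AHR Flox and 3760 to 3950 CPM in ARNT Flox. Calr, the calcium-binding chaperone calreticulin, was at 664, 512 and 659 CPM in AHR Flox and 268, 258 and 248 CPM in ARNT Flox (log2 change -1.25, SE 0.11, adjusted p = 0.000673). Sdf2l1, a component of the chaperone complex, was at 14.4, 11 and 17.6 CPM and 3.75, 3.73 and 3.69 CPM (log2 change -1.94, SE 0.17, adjusted p = 0.000673). Hspa5, the master chaperone BiP, was at 471, 436 and 497 CPM and 296, 303 and 318 CPM (log2 change -0.61, SE 0.08, adjusted p = 0.00325). In each, the ARNT Flox libraries were tightly grouped below all AHR Flox libraries. Protein disulfide isomerases fell as well, Pdia3 1.59-fold (adjusted p = 0.00248) and Pdia6 1.73-fold (adjusted p = 0.00365), as did the endoplasmic HSP90 gene Hsp90b1, 1.39-fold (adjusted p = 0.00737). Derl3, of the degradation machinery, was called with all 6 libraries. Of the fits without 1 library, it was called only without AHR Flox replicate 2, with adjusted p of 0.08 to 0.136 in the others. The members called were 10, 9 and 9 without ARNT Flox replicates 1, 2 and 3, 11 without AHR Flox replicate 1, 3 in the fit of 12 libraries, and 8 in that fit without ARNT KO replicate 3.

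The endoplasmic reticulum stress element, CCAAT, any 9 bases and CCACG on either strand, was likewise chosen after the data were seen. It was rare: 19 of the 10770 genes with a promoter held it (0.176%). Among those 19 were 10 of the 523 genes called lower (1.91%) and 1 of the 725 called higher (0.138%). Of the list's 23 genes with a promoter 9 held it, 8 of the 15 called lower and 1 of the 8 others. The promoters of Calr (chr8:84846932-84847131, minus strand) and Hspa5 (chr2:34771890-34772089, plus strand) are shown for the 200 bases before the start, since each holds the full element, in capitals, in opposite orientations.
Calr: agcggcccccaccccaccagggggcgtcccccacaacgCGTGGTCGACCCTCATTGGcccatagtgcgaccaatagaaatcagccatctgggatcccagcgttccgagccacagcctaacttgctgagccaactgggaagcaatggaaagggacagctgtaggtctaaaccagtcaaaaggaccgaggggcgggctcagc
Hspa5: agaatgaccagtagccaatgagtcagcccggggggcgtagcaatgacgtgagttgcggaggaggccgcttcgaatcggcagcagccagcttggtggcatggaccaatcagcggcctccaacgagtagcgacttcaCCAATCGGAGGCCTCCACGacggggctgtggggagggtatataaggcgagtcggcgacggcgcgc

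Cytosolic chaperones and proteasome subunits leaned the same way by smaller amounts. Of 20 tested heat shock chaperone genes 4 were lower and none higher (median log2 change -0.34), among them Hsp90aa1, which was 1.72-fold lower (adjusted p = 0.0127), and Fkbp4, an HSP90 partner, at 212, 212 and 215 CPM in AHR Flox and 128, 136 and 136 CPM in ARNT Flox (adjusted p = 0.000968). Without AHR Flox replicate 1 there were 8. Of 31 proteasome subunit genes 9 were lower and none higher, with a median log2 change of -0.20, and Psma4 led with a 1.4-fold fall (adjusted p = 0.0046). Without any 1 of the ARNT Flox libraries 1 was called, and 3 and 4 without AHR Flox replicates 1 and 3. Atf5, a stress-induced transcription factor, was at 389, 253 and 331 CPM in AHR Flox and 132, 127 and 147 CPM in ARNT Flox (log2 change -1.26, SE 0.15, adjusted p = 0.00216). Its list, the integrated stress response, held 2 members higher and 1 lower of 18.

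Of the markers of other liver cell types, those of Kupffer cells and macrophages were most often higher in ARNT Flox. In whole liver RNA, a change in the number of cells of a type and a change in RNA per cell cannot be told apart. Of 31 tested Kupffer cell and macrophage markers 16 were higher and none lower (median log2 change 0.51), and their summed level was 824 to 1160 CPM in AHR Flox and 1300 to 1410 CPM in ARNT Flox. Mpeg1, which encodes the pore-forming protein perforin-2 of macrophages, was at 79.1, 83.1 and 102 CPM in AHR Flox and 189, 185 and 187 CPM in ARNT Flox (log2 change 1.09, SE 0.10, adjusted p = 0.000673). Clec4f, the defining marker of resident Kupffer cells, was at 122, 132 and 148 CPM and 167, 178 and 181 CPM, and its adjusted p of 0.0247 rose to 0.0519 to 0.0852 without any of 5 libraries. Genes of recruited or lipid-associated macrophages showed larger folds at low levels. Gpnmb went from 0.988, 0.376 and 1.12 CPM to 4.38, 3.73 and 3.6 CPM (adjusted p = 0.00406), Itgax rose 3.3-fold (adjusted p = 0.00716), Cx3cr1 2.96-fold (adjusted p = 0.00689) and Ccr2, a monocyte chemokine receptor, 2.53-fold (adjusted p = 0.0102). The members called were 7, 9 and 11 without ARNT Flox replicates 1 to 3, 10, 8 and 22 without AHR Flox replicates 1 to 3, none in the fit of 12 libraries and 18 in that fit without ARNT KO replicate 3.

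Extracellular matrix genes followed: 14 of 38 were higher and none lower, 37 of 38 had a log2 change above 0, and the median was 0.54. Postn, the matrix protein periostin, was at 9.37, 8.2 and 12.7 CPM in AHR Flox and 17.6, 16.9 and 19.4 CPM in ARNT Flox (adjusted p = 0.0127), and Lamc1, a laminin chain, rose 1.58-fold (adjusted p = 0.00993). The fibrillar collagen gene Col1a1 was at 13.8, 6.73 and 15.3 CPM and 28.3, 22.7 and 23 CPM, with no overlap, but its adjusted p of 0.0335 became 0.0665 to 0.107 without any 1 ARNT Flox library. Mmp12, a macrophage elastase, rose 4.35-fold (adjusted p = 0.0154, and 0.0533 without ARNT Flox replicate 1). Outside the list, Col4a3, a basement membrane collagen, went from 1.46, 1.81 and 1.74 CPM in AHR Flox to 13, 13.3 and 11.4 CPM in ARNT Flox (log2 change 2.91, SE 0.14, adjusted p = 3.61e-05). The count of 14 fell to 4, 7 and 5 without ARNT Flox replicates 1 to 3, to 9 and 7 without AHR Flox replicates 1 and 2, to 7 in the fit of 11 libraries and to 0 in that of 12.

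Stellate cells, which store retinoids and deposit matrix, had 4 of 22 markers higher. Their summed level was 595 to 762 CPM in AHR Flox and 834 to 998 CPM in ARNT Flox. Without ARNT Flox replicate 1 the count was 1, and without ARNT Flox replicate 2 or 3 it was 2. All 26 endothelial markers had a log2 change above 0 and 4 were called higher, among them Flt4, a lymphatic and sinusoidal growth factor receptor, 1.45-fold (adjusted p = 0.00951). Leaving out any 1 ARNT Flox library, or AHR Flox replicate 1 or 2, left 2 called. All 30 lymphocyte markers had a log2 change above 0, 6 were called higher, and their summed level was 41.2 to 48.2 CPM in AHR Flox and 61.5 to 79 CPM in ARNT Flox. None of the 6 was called without ARNT Flox replicate 1 or 2 or AHR Flox replicate 2. Neutrophil (6 tested) and erythrocyte markers (3 tested) had no called member, bile duct markers 1 of 15 higher (Prom1), pancreas markers 1 of 3 lower, adipocyte markers 1 higher and 1 lower of 6, and muscle markers none of 6. The part of these cell types in the other differences was not tested.

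**Figure D3:**
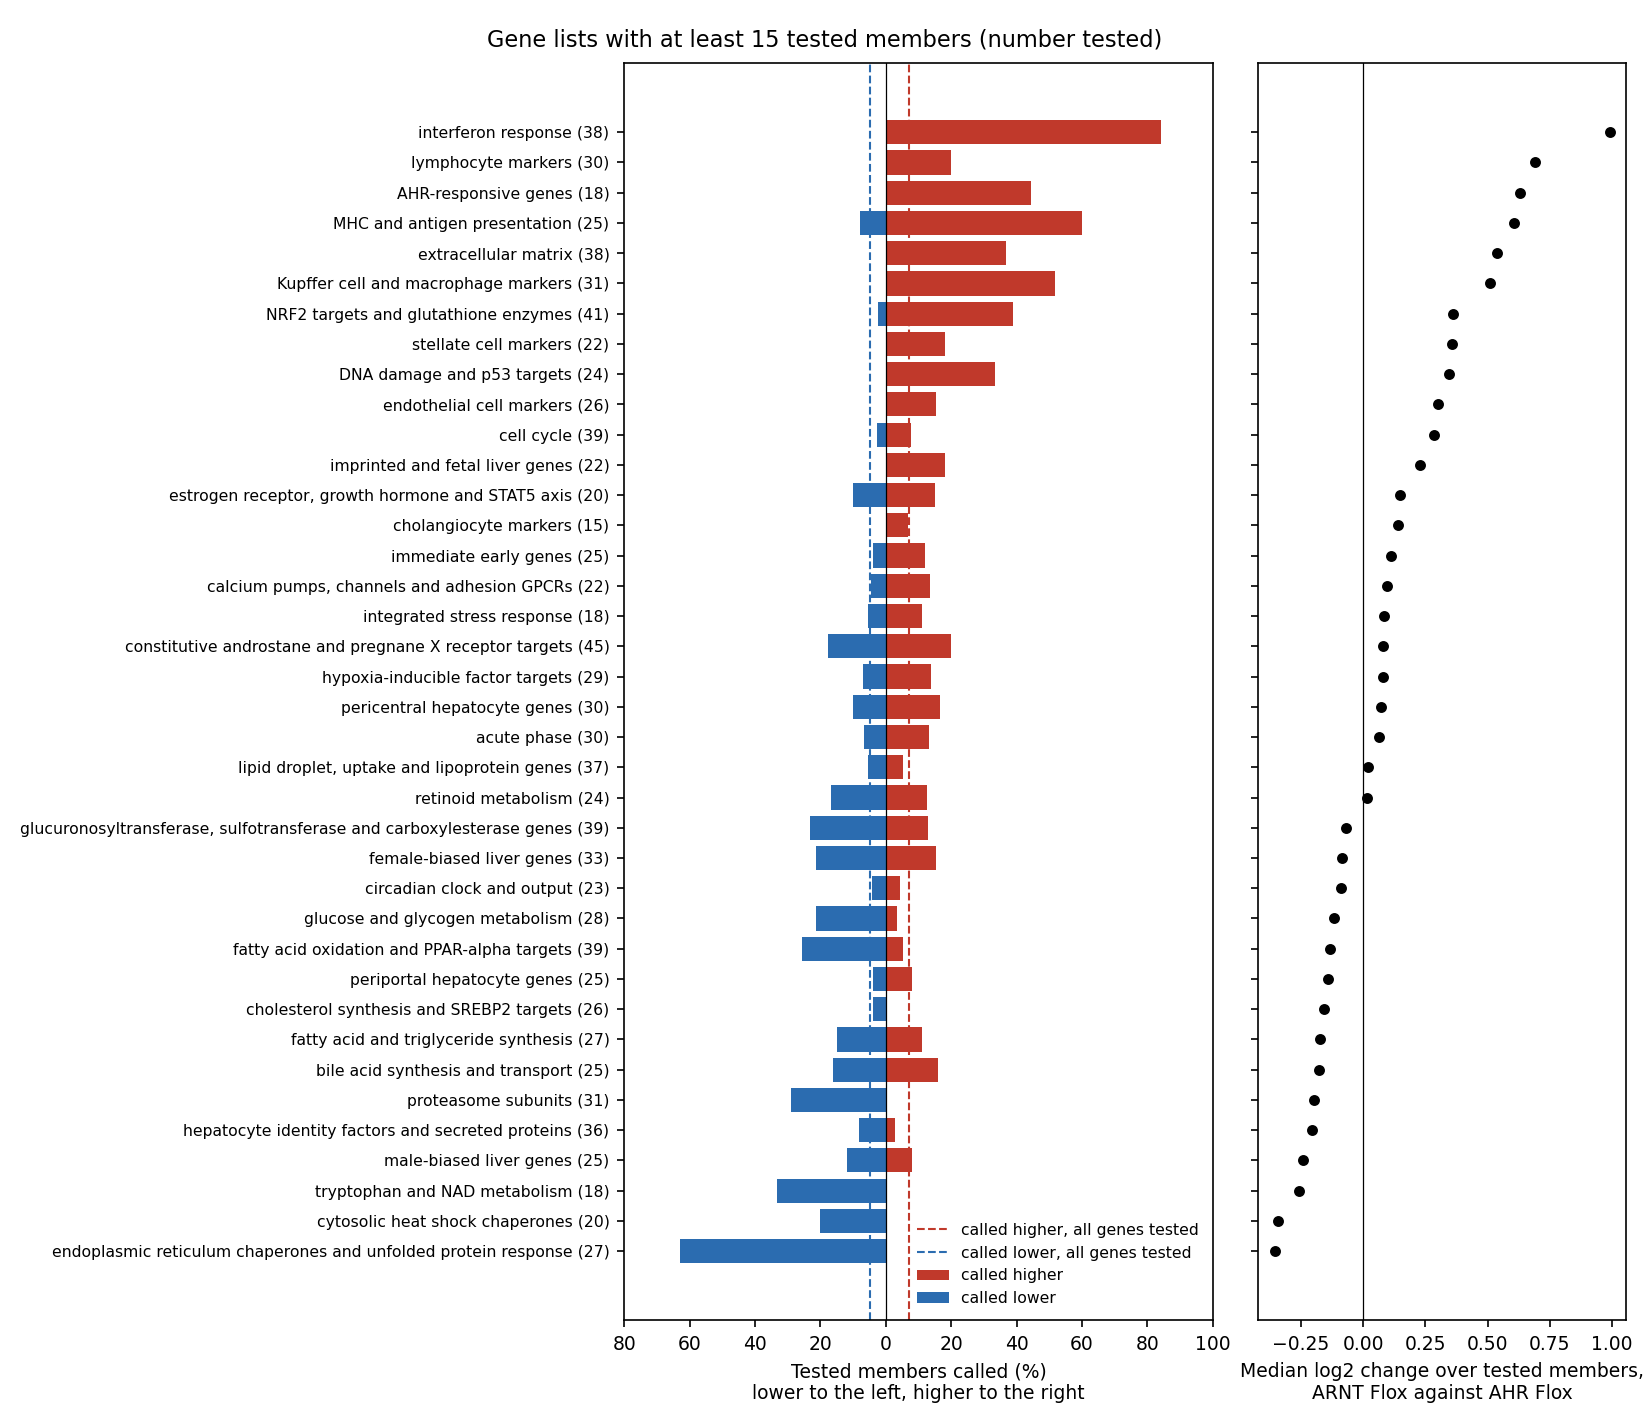
For each gene list with at least 15 tested members, the left panel gives the percent of members called higher (red, to the right) and lower (blue, to the left), with dashed lines at the 7.05% and 4.84% of all genes tested; the right panel gives the median log2 change. The interferon list reaches furthest to the right and the endoplasmic reticulum chaperone list furthest to the left.

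The imprinted H19 and Igf2 genes, which are active in fetal liver and silenced after birth, differed strongly, and H19 had the largest log2 rise of all genes tested. H19, a noncoding RNA (chr7:142575530-142578146), was at 0.613, 0.513 and 0.704 CPM in AHR Flox and 90.1, 120.5 and 65.7 CPM in ARNT Flox, a 152-fold rise (log2 change 7.24, SE 0.29, adjusted p = 2.11e-05). Igf2, the neighbouring growth factor gene (chr7:142650768-142666816), was at 0.511, 0.239 and 0.29 CPM in AHR Flox and 4.11, 6.86 and 2.43 CPM in ARNT Flox (log2 change 3.67, SE 0.46, adjusted p = 0.0029). In both, ARNT Flox replicate 2 was highest and replicate 3 lowest of its line, and the AHR Flox libraries were all near the floor. Of 22 tested imprinted and fetal liver genes 4 were higher and none lower. Without ARNT Flox replicate 2 or AHR Flox replicate 1 or 2 the number called higher was 2, both among those 4. Dio3os, a noncoding RNA beside the imprinted Dio3, fell from 4.73, 5.37 and 3.06 CPM to 1.13, 0.438 and 1.22 CPM (adjusted p = 0.00667).

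Growth and damage genes moved in part. Ccnd1, the cyclin that opens the cell cycle, was at 124, 159.8 and 142 CPM in AHR Flox and 247, 287 and 315 CPM in ARNT Flox (log2 change 1.00, SE 0.12, adjusted p = 0.00234), but only 3 of 39 cell cycle genes were higher and 1 was lower (1 to 5 and 0 to 2 without 1 library). Myc was at 4.67, 3.42 and 3.31 CPM and 32.4, 9.05 and 9.22 CPM, with ARNT Flox replicate 1 far above the rest. Its adjusted p of 0.029 was 0.0548 to 0.0873 without any 1 AHR Flox library. Of 24 DNA damage and p53 target genes 8 were higher and none lower (median log2 change 0.35). Phlda3, a p53-induced brake on AKT, rose 2.56-fold (adjusted p = 0.00304), and Rad51l1 (now Rad51b), a recombination repair gene, rose from 14.9, 15.7 and 14.4 CPM to 36.2, 29.4 and 31.6 CPM (adjusted p = 0.000542). Without ARNT Flox replicate 2 or 3 or AHR Flox replicate 2 the 8 became 4.

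Hepatocyte metabolism leaned lower in ARNT Flox by small amounts. Of 39 tested fatty acid oxidation and PPAR-alpha target genes 10 were lower and 2 higher (median log2 change -0.14). Cyp4a14, a fatty acid hydroxylase, was at 700.4, 732 and 750.5 CPM in AHR Flox and 371, 404 and 323 CPM in ARNT Flox (log2 change -0.99, SE 0.10, adjusted p = 0.000982), and Acadm, the medium-chain dehydrogenase, fell 1.34-fold (adjusted p = 0.0138). The lower count was 2, 3 and 2 without ARNT Flox replicates 1 to 3, and 2 and 4 without AHR Flox replicates 2 and 3. In glucose and glycogen metabolism 6 of 28 were lower and 1 higher. Pygl, liver glycogen phosphorylase, fell from 549.6, 542 and 549.8 CPM to 374, 406 and 390.2 CPM (adjusted p = 0.00591), and the liver pyruvate kinase Pklr fell 1.39-fold (adjusted p = 0.0134). Of 18 tryptophan and NAD genes 6 were lower and none higher, led by Ido2, which fell 1.42-fold (adjusted p = 0.00353), and Kynu, kynureninase, which fell 1.47-fold (adjusted p = 0.0109). Either list had 2 to 4 members called lower when 1 library was left out.

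Lipid synthesis and storage genes held strong single rises. Fabp5, a fatty acid-binding protein, was at 7.66, 12.4 and 9.15 CPM in AHR Flox and 41.3, 30.2 and 42.1 CPM in ARNT Flox (log2 change 1.96, SE 0.19, adjusted p = 0.000968). Scd2, a stearoyl-CoA desaturase, was at 7.39, 7.72 and 7.37 CPM and 27.6, 38.7 and 19.7 CPM (adjusted p = 0.00193), and Pnpla3, a lipid droplet lipase, rose 2.42-fold (adjusted p = 0.00192). Each was high in all 3 ARNT Flox mice. As groups, 3 of 27 synthesis genes were higher and 4 lower, 2 of 37 lipid droplet and lipoprotein genes were higher and 2 lower, and 1 of 26 cholesterol synthesis genes, Acat2, was lower. In bile acid synthesis and transport 4 of 25 were higher and 4 lower. Leaving out 1 library moved these counts to 3 to 5 and 1 to 3 for synthesis, 1 to 6 and 0 to 3 for lipid droplets, 0 to 2 and 0 to 3 for cholesterol, and 1 to 4 and 1 to 6 for bile acids. Nr1h4, the bile acid receptor FXR, fell from 183, 212 and 177 CPM to 128, 131 and 122 CPM (adjusted p = 0.00531). Of 36 hepatocyte identity factors and secreted proteins 3 were lower, Nr1h4, Cebpa and Serpina1c, and 1, Onecut1, was higher. The calls of Cebpa, Serpina1c, Onecut1 and Acat2 were lost without 2 to 4 of the libraries, among them ARNT Flox replicates 1 and 2, at adjusted p of 0.0547 to 0.0824. Alb itself was at 78430.0, 89280.0 and 84390.0 CPM and 69700.0, 87890.0 and 70520.0 CPM (adjusted p = 0.629).

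Other lists had called members in both directions, several at shares above the 7.05% higher and 4.84% lower of all genes tested. The shares were 12.5% and 16.7% for retinoid genes, 16.7% and 10% for pericentral genes, and 15% and 10% for the estrogen receptor, growth hormone and STAT5 axis. For hypoxia-inducible factor targets they were 13.8% and 6.9%, against 8% and 4% for periportal and 4.35% and 4.35% for circadian genes. Periportal genes had 2 higher and 1 lower of 25, pericentral genes 5 and 3 of 30, circadian genes 1 and 1 of 23, acute phase genes 4 and 2 of 30, immediate early genes 3 and 1 of 25 and retinoid genes 3 and 4 of 24. The estrogen receptor, growth hormone and STAT5 axis had 3 higher and 2 lower of 20, and calcium pumps, channels and adhesion receptors 3 and 1 of 22. Hypoxia-inducible factor targets, which depend on ARNT for their induction, had 4 higher and 2 lower of 29. No list of these had more than 6 called members in a direction when 1 library was left out. Among them the hexokinase gene Hk2 rose from 2.28, 1.64 and 1.91 CPM to 6.31, 4.76 and 6.87 CPM (adjusted p = 0.00246) and Ndrg1 rose 1.89-fold (adjusted p = 0.0021). Vegfa, the vascular growth factor, was at 269, 276 and 208 CPM and 247, 236 and 226 CPM and did not pass (adjusted p = 0.642).

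By size in CPM, the losses in ARNT Flox were those of abundant hepatocyte genes. Besides Mup3, Mug1, Car3 and Serpina1c, these included Mat1a and Bhmt. Mat1a, which makes the methyl donor S-adenosylmethionine, was at 4501, 5046 and 4830.0 CPM in AHR Flox and 2677, 3151 and 3638 CPM in ARNT Flox (adjusted p = 0.0233). Bhmt, a homocysteine methyltransferase, was at 1230.0, 2480.0 and 1873 CPM and 957, 938 and 1151 CPM (adjusted p = 0.0399). The groups did not overlap in either gene, but Bhmt varied widely among AHR Flox mice, and the calls were lost without 3 and 5 of the 6 libraries, at adjusted p of 0.0653 to 0.125. Among the gains were Gstm1, Cyp2a5, Cyp2a4, Cyp1a2, H2-T23, Ly6e, Ugt2b35 and the nuclear noncoding RNA Neat1, at 332, 348 and 335 CPM and 668, 435 and 469.8 CPM (adjusted p = 0.0312, and 0.0695 to 0.0742 without any 1 AHR Flox library). Neat1 was highest in ARNT Flox replicate 1, the library that was also highest for Myc.

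A few transcripts were all but confined to 1 line in the 6 Flox libraries. A330049N07Rik, a long noncoding RNA on chromosome 10, was at 4.97, 6.94 and 3.19 CPM in AHR Flox and 0.0298, 0 and 0 CPM in ARNT Flox (adjusted p = 0.000337). LOC624759, which has no match in the annotation, was at 1.57, 3.38 and 1.16 CPM in AHR Flox and had 0 reads in ARNT Flox, at least 60.8-fold lower (adjusted p = 0.00632). Prtn3, the neutrophil protease proteinase 3, was the one that went the other way, at 0.0681, 0 and 0.0414 CPM in AHR Flox and 1.52, 0.97 and 1.09 CPM in ARNT Flox (adjusted p = 0.00179). Lrtm2 was close to that pattern, at 0.102, 0 and 0.0828 CPM and 1.88, 2.57 and 1.97 CPM (adjusted p = 0.000811). These genes did not split the KO mice by line. In AHR KO, A330049N07Rik was at 0.0651, 0 and 0 CPM and LOC624759 at 0.0325, 0 and 0 CPM. Neither had a read in ARNT KO. Prtn3 was at 0.0976, 0.356 and 1.79 CPM in AHR KO and 0.279, 0.254 and 1.06 CPM in ARNT KO. Lrtm2 was at 0.163, 0 and 0.157 CPM in AHR KO and 0.124, 0.127 and 8.6 CPM in ARNT KO. Ly6d, a surface protein of developing B cells and some epithelia, rose 11.6-fold (adjusted p = 0.000439), Vtcn1, an immune checkpoint ligand, 7.22-fold (adjusted p = 0.00253) and Clec2h, a C-type lectin, 11-fold (adjusted p = 0.00439). Abcc12, an ABC transporter gene, rose 6.59-fold (adjusted p = 0.00732), and the noncoding Gm10804 7.07-fold (adjusted p = 0.0105), both with ARNT Flox replicate 1 highest. Lect1 (now Cnmd), which encodes the angiogenesis inhibitor chondromodulin, fell from 3.54, 4 and 3.77 CPM to 1.13, 0.876 and 0.712 CPM (adjusted p = 0.000977). Slc39a5, a zinc importer gene, rose from 3.17, 2.77 and 3.35 CPM to 15.4, 15.7 and 14.3 CPM (adjusted p = 4.38e-05), and Ly6a, the stem cell antigen Sca-1, from 7.32, 8.48 and 8.2 CPM to 33.5, 30.2 and 29.8 CPM (adjusted p = 3.61e-05). In both the lines were far apart and the spread within each was small.

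The same line difference was then read in mice that share no library with these, ARNT KO against AHR KO, where line and deleted gene differ together. There edgeR called 8 of 13643 genes tested (0.0586%), 1 higher (0.00733%) and 7 lower (0.0513%), with 2054 at an unadjusted p under 0.05. The number was 3 and 1 without ARNT KO replicate 1 or 2, 15 without ARNT KO replicate 3, and 4 without AHR KO replicate 3. Of the 8, 5 were called in the same direction in the Flox pair, which is 62.5% of these calls and 0.31% of the Flox calls: Cd1d2 higher, and Gm8801, Gm8909, Rps3a and Sntg2 lower. Without ARNT KO replicate 3 the pairs shared 7 calls. Cd1d2 was at 0.26, 0.485 and 0.564 CPM in AHR KO replicates 1 to 3 and 27.1, 25.8 and 20.5 CPM in ARNT KO replicates 1 to 3, and Gm8801 at 9.86, 13.1 and 7.09 CPM and 0, 0.0318 and 0 CPM. Sntg2 was at 21, 24.1 and 23.8 CPM and 6.05, 7.4 and 5.28 CPM, and Rps3a at 254, 281 and 301 CPM and 72.7, 74.9 and 75 CPM. In each of these 4 genes the line that was high in the Flox pair was high again, with no overlap. Acp1, at 32, 30.3 and 29.4 CPM and 66.9, 62.9 and 52.7 CPM, was also apart without overlap but missed the threshold (adjusted p = 0.0565). The counts of Ahr were not lower in AHR KO, at 84.35, 94.8 and 80.3 CPM against 62.07, 78.35 and 92.44 CPM in ARNT KO. Its log2 change in this pair was -0.146 and was not called (adjusted p = 0.641).

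Signs in the 2 pairs were compared over the genes tested in both. Among 938 called higher in the Flox pair, 841 (89.7%) were also above 0 in the KO pair, and among 654 called lower 574 (87.8%) were below 0, against 69% same-sign over all 13449 genes. Without ARNT KO replicate 3 these shares were 66.1%, 71.4% and 59.1%. The ARNT KO libraries differed in this. Against the mean of AHR KO, the median log2 difference of the genes called higher was 0.02, 0.18 and 0.98 in ARNT KO replicates 1, 2 and 3, and of those called lower -0.05, -0.17 and -0.62. For the interferon list it was 0.003, -0.02 and 1.32, and for the NRF2 list 0.12, 0.10 and 1.11. For the MHC and antigen presentation list it was -0.12, -0.02 and 0.57, and for Kupffer cell and macrophage markers 0.09, 0.29 and 1.05. Extracellular matrix genes had 0.11, 0.65 and 1.57. The endoplasmic reticulum chaperone list had -0.06, -0.42 and -0.34, so replicate 2 was at least as low there as replicate 3. Irf7 was at 33.8, 39.7 and 43.3 CPM in AHR KO and 45.6, 45.1 and 200.4 CPM in ARNT KO, and Cbr3 at 0.618, 0.744 and 0.784 CPM and 0.9, 0.89 and 162 CPM. H19, at 4.52, 9.42 and 7.49 CPM and 5.71, 8.83 and 119.7 CPM, showed the same single high library, and its AHR KO mice were above the AHR Flox mice. Cyp2c54 was at 131, 41.9 and 259 CPM and 16.4, 24 and 2.96 CPM, so that all 3 ARNT KO libraries lay below all 3 AHR KO libraries, with no call (adjusted p = 0.286).

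Across all 12 libraries, 192 of the 1615 called genes had every ARNT-line library on the same side of every AHR-line library, 100 higher and 92 lower, against 206 (107 higher and 99 lower) without ARNT KO replicate 3. Such separation also occurred in 262 genes that were not called. That is a smaller share of its set, since most of the 13584 genes tested were not called. All 1615 called genes were already apart in the Flox libraries, so these shares are not directly comparable. Of the 192, 16.1% lay on chromosome 17, 7.81% on chromosome 3 and 7.29% on chromosome 12. These chromosomes hold 4.99%, 4.92% and 3.44% of the genes tested, and 6.93%, 6.01% and 3.53% of the genes called. By separation in the KO pair alone, 20.7% of the genes called higher lay above and 27.1% of those called lower lay below without overlap, against 11% and 13.5% of all genes. Without ARNT KO replicate 3, where fewer libraries have to separate, the shares were 21.4% and 28.3%, against 16% and 18.2%. Beyond those already named, the 192 held H2-T10, Igf2, Hk2, Ifit2 and, on the chromosome of Arnt, Mtap9 (now Map9), 13 Mb away, and B3galnt1.

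**Figure D4:**
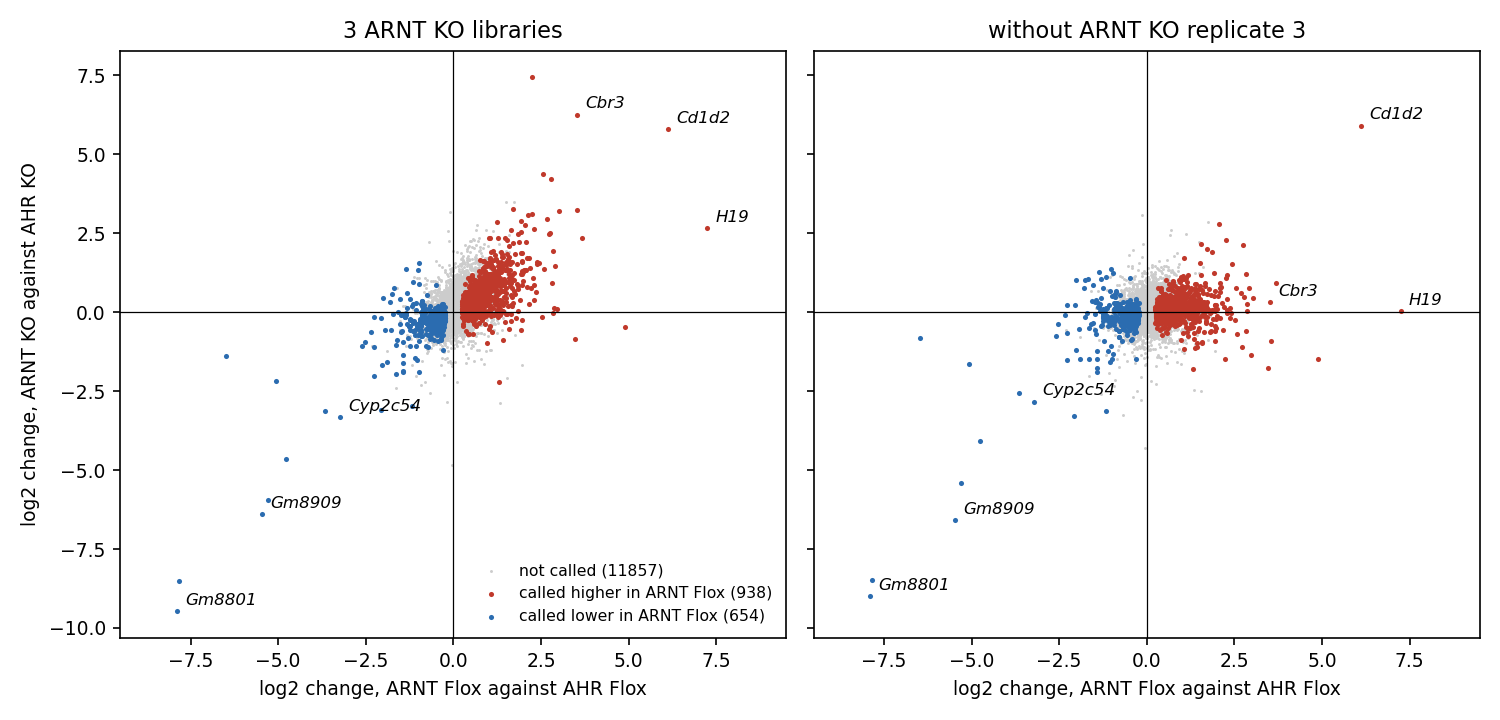
Each point is a gene tested in both pairs, with its log2 change in ARNT Flox against AHR Flox on the x axis and in ARNT KO against AHR KO on the y axis, with 3 ARNT KO libraries (left) and without replicate 3 (right). Red and blue points are called higher and lower in the Flox pair; without replicate 3 most red points lie near 0 on the y axis, while Cd1d2, Gm8909 and Gm8801 stay far from it.

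**Figure D5:**
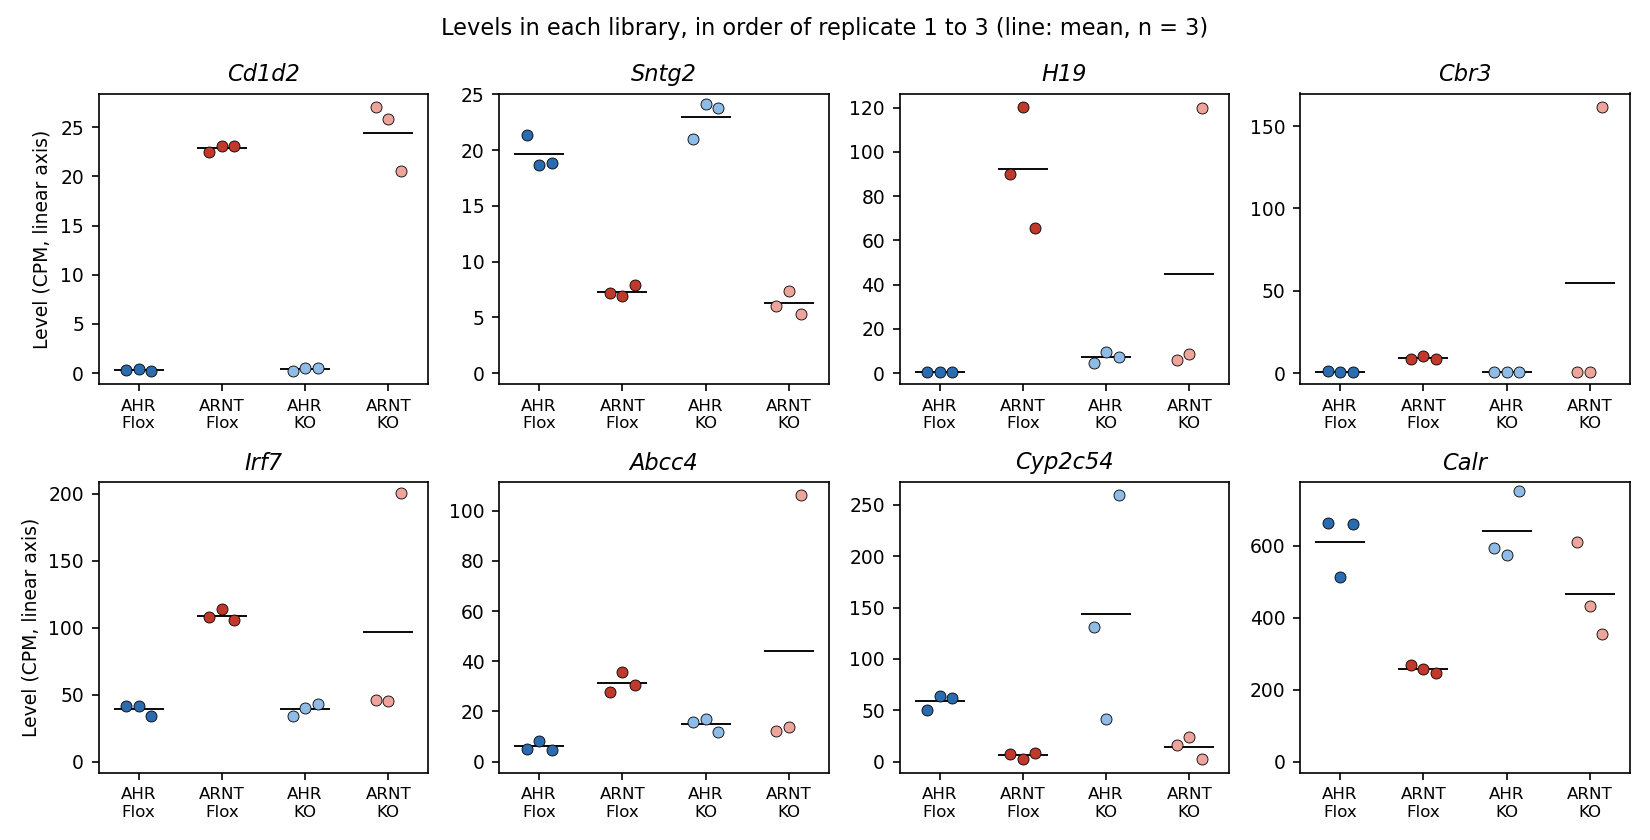
Level (CPM, linear axis) of 8 genes in each of the 12 libraries, by group, with the mean of the 3 libraries as a line. Cd1d2 and Sntg2 separate the ARNT line from the AHR line in Flox and KO mice alike, whereas H19, Cbr3, Irf7 and Abcc4 are high in 3 ARNT Flox libraries and only in replicate 3 of ARNT KO.

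Whether the line difference itself differed between the pairs was tested in 1 fit of 12 libraries. The difference was called for 6 of 13968 genes (0.043%): Gpr64 (now Adgrg2), Rad51l1, Socs2, Arnt, Gas2 and Atp2b2, with 1328 at an unadjusted p under 0.05. Gpr64, an adhesion receptor, was higher in ARNT Flox, 15.3, 13.1 and 11.6 CPM against 4.22, 5.88 and 4.76 CPM, and lower in ARNT KO, 5.8, 4.92 and 6.55 CPM against 11.6, 9.25 and 11.2 CPM. Atp2b2, a plasma membrane calcium pump, did the reverse, 2.83, 2.41 and 2.56 CPM in ARNT Flox against 7.29, 8.17 and 4.39 CPM in AHR Flox and 6.95, 6.7 and 8.15 CPM in ARNT KO against 3.22, 2.81 and 2.54 CPM in AHR KO. In both genes all 3 libraries of a group lay outside the range of the group compared, in opposite directions in the 2 pairs. For Arnt the deletion itself enters this difference. Without ARNT KO replicate 3 the number called was 194. It was 2 without ARNT KO replicate 2, 3 and 1 without ARNT Flox replicates 2 and 3, 3 and 3 without AHR Flox replicates 1 and 3, and 1 without AHR KO replicate 2.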

How the data were processed

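Poly-A RNA from the livers of 12 mice was sequenced, 1 library per mouse. The deposited values are raw counts, whole numbers for each of 22537 gene symbols. Per the labels' protocols, Trizol extraction was followed by a NEBNext Ultra II library preparation. Tools named in the submitters' processing notes are STAR (2.5.4b, 2.6.0c), bcl2fastq 2.20, DESeq2 1.20.0 and R 3.5.1, and the genome build there is mm10. What counted the reads, with which annotation and strand setting, is not given in the sources used here. No 2 libraries of a Flox line were duplicates (chi-square per degree of freedom 17.4 to 36.5).

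Counts of the 6 Flox libraries alone were fitted with edgeR 4.0.16 in R 4.3.3, with a mean per line and no covariate, after filterByExpr (minimum count 10, minimum total 15; 13584 genes, 99.97% of counts) and TMM scaling. Genes were called at a Benjamini-Hochberg adjusted p under 0.05 in the two-sided quasi-likelihood F test, and log2 changes carry the standard error (SE) of that fit. The biological coefficient of variation was 11.4%. The KO pair was fitted the same way on its 6 libraries, and the difference between pairs on all 12. Tested on simulated data, the fit (13488 genes) recovered 46% of 1.5-fold, 92% of 2-fold and 100% of 4-fold changes, with 9 false calls. These changes were planted in 50, 100 and 50 genes with a mean of at least 1 CPM, and nowhere else. That is far fewer genes than were called here, so these rates need not hold for this comparison. Positions, promoters and current symbols come from RefSeq (GRCm38.p6, matched for 99.38% of tested genes).

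The members, the 45 gene lists and the naming rule were chosen with earlier results of these data known. The rule takes Ahr and Arnt, called genes with the largest log2 and CPM changes, genes seen in 1 line only, and the 4 members of each list with the smallest p, and some genes it takes are not reported here. Named outside it, after their values were seen, were 2410017I17Rik, Acp1, Alb, B3galnt1, Ccr2, Cd1d1, Clec4f, Cmpk2, Ctss, Cyp1a1, Cyp1b1, Cyp2c37, Cyp2g1, Gas2, H2-Ab1, H2-D1, H2-Q6, Hsp90b1, Ifi44, Ly6a, Mtap9, Pdia6, Psmb9, Rps3a, Rsad2, Slc39a5, Sntg2, Socs2, Taldo1, Tiparp, Tmem18, Vegfa and Zbp1. Tried as alternatives were upper quartile scaling, DESeq2 size factors, TMM with the 50 most abundant genes left out, no filter, 1 CPM in 3 libraries, DESeq2 1.42.0, limma-voom (limma 3.58.1), all 12 libraries in 1 fit, the replicate number as a block, each library left out, and, added after seeing the data, 11 libraries without ARNT KO replicate 3.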

Additional observations from a re-analysis of the deposited data

Results flagged for a closer look

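The 6 genes for which the line difference itself differed between the KO pair and the Flox pair, by edgeR's test of that difference, are given here as values. The difference is the log2 change of ARNT KO against AHR KO minus that of ARNT Flox against AHR Flox. It was -2.32 for Gpr64 (adjusted p = 0.00741), with log2 changes of -0.88 in the KO pair and 1.43 in the Flox pair. Atp2b2 had a difference of 2.7 (adjusted p = 0.0112), from 1.36 and -1.35. For Rad51l1, a DNA repair gene, it was -1.75 (adjusted p = 0.0301), from -0.63 and 1.11, and for Gas2, a cytoskeletal gene, 1.29 (adjusted p = 0.0301), from 0.54 and -0.76. Socs2, which restrains growth hormone signalling, had -2.52 (adjusted p = 0.0461): 94.5, 61.2 and 76.8 CPM in AHR KO and 25.5, 26.4 and 21.9 CPM in ARNT KO, against 34.1, 25.9 and 25.1 CPM in AHR Flox and 76.7, 37.1 and 41.4 CPM in ARNT Flox. Arnt had -1.3 (adjusted p = 0.0301), and there the deleted gene is the one measured: 65.5, 68 and 55.1 CPM in AHR KO and 25.2, 23.9 and 18.9 CPM in ARNT KO. Without ARNT KO replicate 3 all 6 differences were called again: -2.41 for Gpr64, 2.62 for Atp2b2, -1.58 for Rad51l1, 1.32 for Gas2, -2.44 for Socs2 and -1.18 for Arnt, with adjusted p of 0.00106 to 0.0153.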

How the results depend on the processing

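The Flox count of 1615 stayed within 1.5 times under the scaling, filter, DESeq2 (1872) and limma-voom alternatives and in the fit of 11 libraries, but was 46 with all 12 libraries in 1 fit and 631 to 1467 without 1 library. Upper quartile scaling shifted the split to 1040 higher and 558 lower. Of 129 called genes named in the text, 108 kept their call under every alternative on the 6 libraries, none reversed, and 28 were called in the fit of 12. The KO count of 8 became 13 with no filter, 362 with DESeq2 and 98 in the fit of 12, and 1 to 15 without 1 library. The difference between pairs (6 genes) became 148 with DESeq2 and 1 to 194 without 1 library, and the genes called the same way in both pairs (5) became 10 with no filter, 75 with DESeq2, 14 in the fit of 12, and 1 to 7 without 1 library. The causes were not tested. The labels do not pair the samples by replicate number. In their deviations from the line means, Flox libraries numbered 1, 2 and 3 correlated with their same-numbered partners at 0.318, 0.178 and 0.0942. Pairs with unlike numbers ran from -0.258 to 0.125, the highest being ARNT Flox replicate 3 with AHR Flox replicate 2. Whether same-numbered libraries share a source of variation was not tested. With the replicate block the counts were 2139, 6, 4 and 4 for the Flox pair, the KO pair, their difference and the shared genes. Depth limits the lowest genes: 1 count was worth 0.0298 to 0.0419 CPM in the Flox libraries.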
